A study of Homo sapiens with 9 samples.

Results

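The genes described here are the angiogenic growth factors and receptors PDGFA, PDGFB, PDGFC, PDGFD, VEGFA, VEGFB, PGF, ANGPT2, FLT1 and TIE1, measured by RNA-seq in Z138 cells. They were chosen by name, because SOX11 is reported to act through PDGFA in mantle cell lymphoma. Of the 10 genes, 7 were found by symbol among the 16586 genes of the deposited table, and PDGFB, PDGFC and PDGFD were not analysed here. Z138 is an established line of mantle cell lymphoma cells, and most tumours of this B cell cancer express the transcription factor SOX11. The 9 libraries fell into 3 groups of 3: the rescue, which is SOX11 knockout cells with SOX11 returned (genotype SOX11KO+SOX11Rescue), the knockout (SOX11KO), and wild-type cells (WT). All groups were the same line grown in the same medium, and the labels name no drug or other agent. The labels do not say how SOX11 was disrupted or returned, whether a line is 1 clone, or whether libraries came from separate cultures, so p-values measure only the spread between these libraries.

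PDGF and VEGF proteins are secreted dimers of related structure that signal through receptor tyrosine kinases. PDGFA binds the receptor PDGFRA and drives growth of mesenchymal cells. VEGFA is the main growth factor of endothelial cells and acts through KDR, while FLT1 binds VEGFA, VEGFB and PGF tightly and can hold them away from KDR. TIE1 is an endothelial receptor without a strong ligand of its own that modifies signalling by its partner TEK, the receptor of ANGPT2. In mantle cell lymphoma, SOX11 has been linked to PDGFA secretion and to vessel growth in the tumour.

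Values are normalized counts recovered from the deposited log2 scale, which corrects for depth but not for gene length. Estimated depth was 30800000 to 40700000 reads per library, so 3 reads were worth 2.58 to 3.40 normalized counts. Libraries of 1 group correlated at 0.995 to 0.998 across genes, and no library was a copy of another. Pairs from different groups could be as close, with 0.996 for rescue 1 and wild type 1. The labels give each library a batch equal to its replicate number, with 1 library of each group per batch. SOX11 itself ran from 12715 to 13849 normalized counts in the rescue, from 862 to 1335 in the knockout and from 3003 to 3845 in wild type. SOX11 thus followed the labels, although the knockout kept part of the transcript and the rescue held more of it than wild type. A gene is called changed below where its adjusted p in a limma fit over 11542 genes was under 0.05.

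Among the angiogenic genes, PDGFA and FLT1 were low in the knockout, TIE1 was low in wild type, and VEGFA, VEGFB and PGF were called in no comparison of this fit. In the rescue against the knockout, PDGFA, FLT1 and TIE1 rose, so 3 of the 6 tested genes were called, all higher, where the calls made up 22.1% of all tested genes (11.5% upward and 10.7% downward). In the rescue against wild type, FLT1 and TIE1 rose and none fell, against 4.07% of all tested genes called, 2.30% higher and 1.78% lower. In the knockout against wild type, PDGFA and FLT1 fell and TIE1 rose, against 12.7% of all tested genes called, 7.37% lower and 5.36% higher. ANGPT2 did not reach the filter on low values and was not tested. These comparisons share libraries, so their values are given side by side and no overlap between them is counted. In bulk RNA, fewer cells that express a gene and less of its RNA per cell cannot be told apart.

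**Figure D1:**
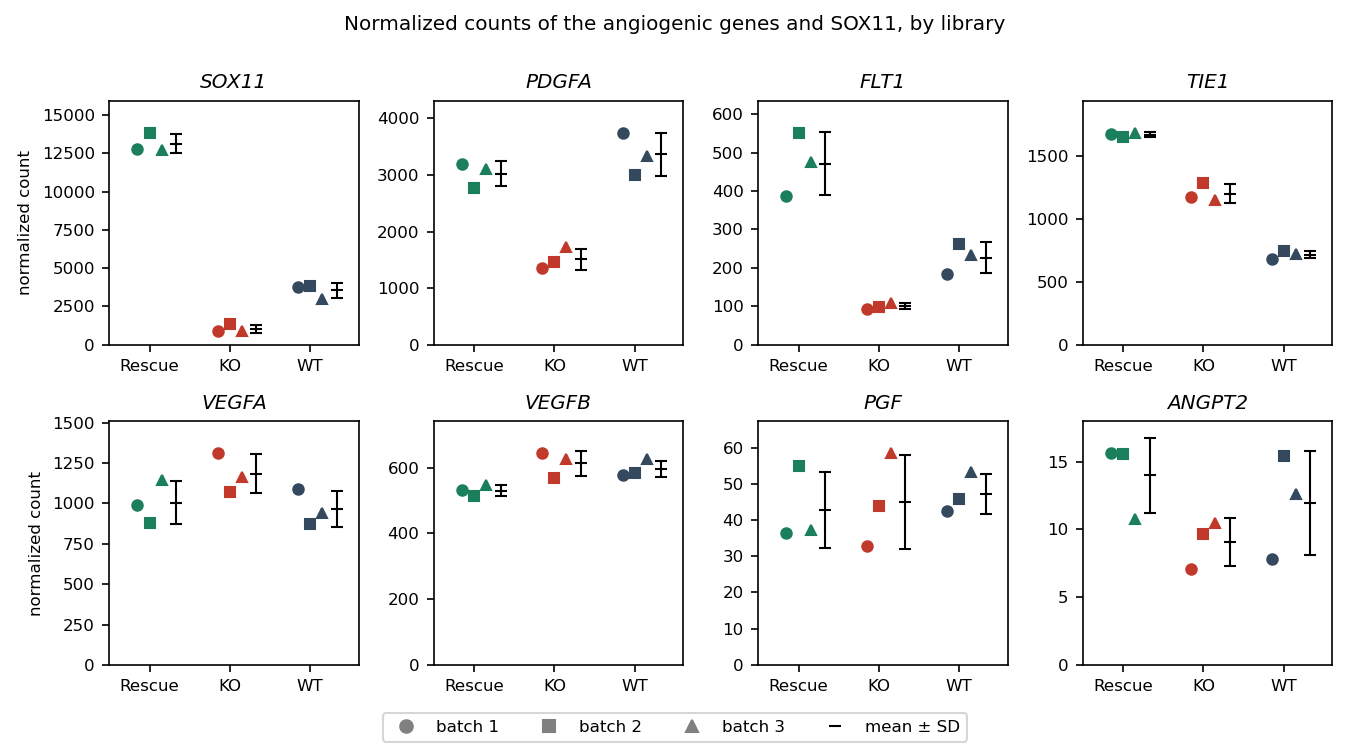
Normalized count of SOX11 and of the 7 angiogenic genes in each library (vertical axes, from 0), by group, with marker shape for the batch and a bar for mean ± SD (n = 3). PDGFA is lowest in the knockout, where its 3 libraries lie between 1357 and 1718, FLT1 steps down from rescue over wild type to knockout, and TIE1 is lowest in wild type.

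PDGFA (ENSG00000197461.13, GRCh38 chromosome 7, 497258 to 520296, minus strand, protein-coding) had normalized counts of 3187, 2777 and 3114 in the rescue (batches 1, 2 and 3), 1357, 1465 and 1718 in the knockout, and 3746, 3000.0 and 3341 in wild type. All 3 knockout libraries lay below every other library, while rescue and wild type overlapped. The mean was 3026 ± 219 in the rescue, 1514 ± 185 in the knockout and 3363 ± 374 in wild type (SD, n = 3 each). PDGFA rose 2.00-fold in the rescue against the knockout (log2 difference 0.76, SE 0.081, adjusted p = 6.07e-05), and the fold within batches ran from 1.81 to 2.35. It fell to 45.0% of wild type in the knockout, with within-batch ratios of 0.362, 0.488 and 0.514 (log2 difference -0.88, SE 0.081, adjusted p = 3.34e-05). In the rescue it averaged 90.0% of wild type and was below its batch partner in each of the 3 batches (ratios 0.851, 0.926 and 0.932), a difference that was not called (adjusted p = 0.506, 95% interval of the log2 difference -0.30 to 0.06). SOX11 stood at 369.8% of wild type in those same rescue libraries. By absolute difference on the deposited log2 scale PDGFA ranked 142 of 11542 tested genes in the rescue against the knockout. For the knockout against wild type it ranked 58. That scale understates the change of genes with low counts, so these are not ranks by fold.

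FLT1 (ENSG00000102755.12, chromosome 13, 28300344 to 28495145, minus strand), the receptor also called VEGFR1, had 387, 552 and 476 normalized counts in the rescue, 92.5, 98.2 and 108 in the knockout, and 183, 263 and 234 in wild type. No library of any group overlapped another group, and the order of the groups was that of SOX11. The rescue averaged 472 ± 82.2, the knockout 99.7 ± 8.03 and wild type 227 ± 40.2 (SD, n = 3 each). The rescue was 4.73-fold above the knockout (4.19 to 5.62 within batches; log2 difference 0.79, SE 0.069, adjusted p = 1.50e-05). Against wild type the rescue was 2.08-fold higher (2.03 to 2.11 within batches; log2 difference 0.44, adjusted p = 0.0041). FLT1 in the knockout fell to 44.0% of wild type (ratios of 0.374 to 0.505 within batches; log2 difference -0.35, adjusted p = 0.0059). Leaving out the 3 libraries of batch 3 kept both differences with wild type at nearly the same size but ended their calls (adjusted p = 0.13 for the rescue and 0.101 for the knockout). Gene-level values do not separate the membrane receptor from its shorter soluble form, which is made from the same gene.

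TIE1 (ENSG00000066056.14, chromosome 1, 43300993 to 43323108, plus strand) had 1676, 1655 and 1686 normalized counts in the rescue, 1172, 1288 and 1148 in the knockout, and 686, 747 and 717 in wild type. The groups again did not overlap, but here the knockout lay above wild type, so the order was not that of SOX11. Means were 1672 ± 16.1 in the rescue, 1203 ± 75.1 in the knockout and 717 ± 30.5 in wild type (SD, n = 3 each). In the rescue TIE1 was 1.39-fold above the knockout (1.28 to 1.47 within batches; log2 difference 0.33, SE 0.051, adjusted p = 8.51e-04). The rescue stood 2.33-fold above wild type (2.22 to 2.45 within batches, log2 difference 0.79, SE 0.051, adjusted p = 6.96e-06). By absolute difference on the deposited log2 scale TIE1 ranked 22 of 11542 tested genes there. Since that scale understates the change of genes with low counts, this is not a rank by fold. In the knockout TIE1 was 1.68-fold above wild type (1.60 to 1.73 within batches, log2 difference 0.46, SE 0.051, adjusted p = 1.28e-04). Both edited states thus held more TIE1 transcript than unedited cells, by more than the spread between libraries.

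For PDGFA, FLT1 and TIE1, each pair of groups that did not overlap gave an exact two-sided permutation p of 0.1, the smallest that 3 against 3 libraries allow. Non-overlap was found for 41.8% of all tested genes in the rescue against the knockout, for 20.8% in the rescue against wild type and for 29.5% in the knockout against wild type. Log2 differences on the deposited scale understate the change of genes with low counts. On a log2(CPM + 1) scale, FLT1 differed by 1.91 in the rescue against the knockout, by 0.96 in the rescue against wild type and by -0.95 in the knockout against wild type, and TIE1 by 1.20 in the rescue against wild type.

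**Figure D2:**
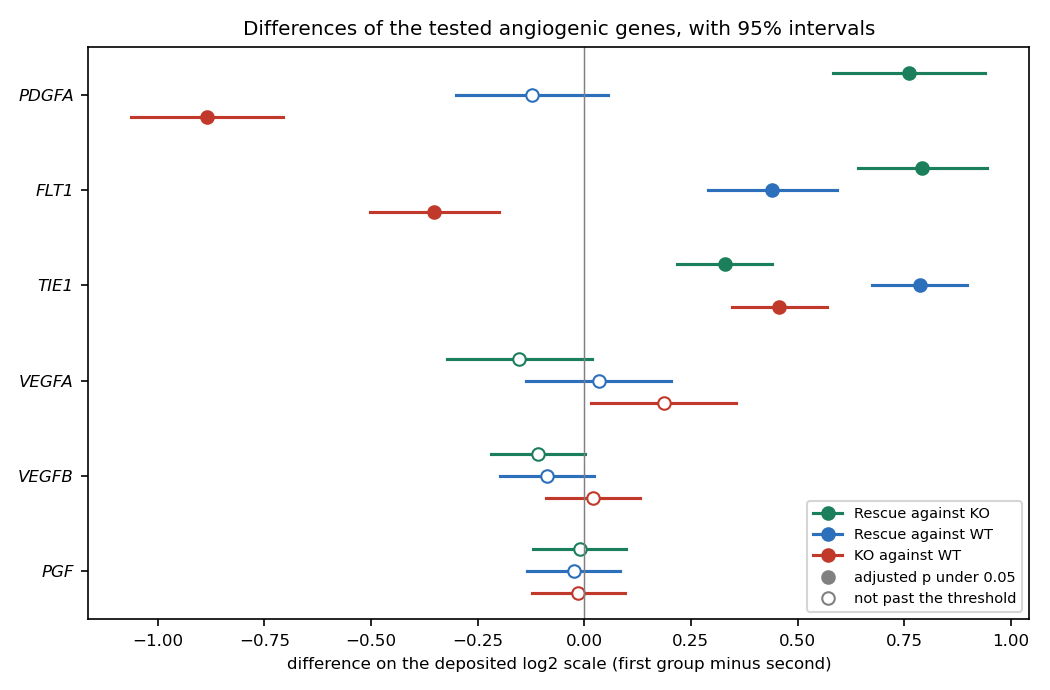
Difference of each tested gene on the deposited log2 scale (horizontal axis, first group minus second) for the 3 comparisons, with 95% intervals from limma; filled circles mark adjusted p under 0.05. PDGFA and FLT1 lie to the right for the rescue against the knockout and to the left for the knockout against wild type, TIE1 lies to the right in all 3, and the intervals of VEGFB and PGF include 0.

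VEGFA (ENSG00000112715.24, chromosome 6, 43770184 to 43786487, plus strand) had 988, 880.1 and 1143 normalized counts in the rescue, 1311, 1072 and 1161 in the knockout, and 1086, 869.6 and 943 in wild type. The groups overlapped, but within every batch the knockout was the highest of the 3. The ratio of knockout to wild type was 1.21 in batch 1 and 1.23 in batches 2 and 3, with a log2 difference of 0.19 (95% interval 0.02 to 0.36) and adjusted p = 0.151. With the replicate number as a block, the same difference passed the threshold (SE 0.057, adjusted p = 0.0417), in a fit that called 21.5% of all tested genes. For the rescue the ratio to the knockout was 0.754, 0.821 and 0.984 in the 3 batches (adjusted p = 0.192), and the mean was 1.04-fold that of wild type (log2 difference 0.03, 95% interval -0.14 to 0.20). An antisense gene overlaps VEGFA, and since the labels do not tie the stranded kit to particular libraries, reads from it could be included.

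VEGFB (ENSG00000173511.9, chromosome 11, 64234538 to 64238793, plus strand), a ligand of FLT1, had 531, 513 and 546 normalized counts in the rescue, 645, 569 and 625 in the knockout, and 579, 584 and 625 in wild type. The 3 rescue libraries were the lowest of the 9, at 86.4% of the knockout mean and 88.9% of the wild-type mean. Neither difference was called (rescue against knockout log2 -0.11, 95% interval -0.22 to 0.00, adjusted p = 0.153; rescue against wild type log2 -0.09, 95% interval -0.20 to 0.02, adjusted p = 0.439). The knockout and wild type overlapped, with a log2 difference of 0.02 (95% interval -0.09 to 0.13).

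PGF (ENSG00000119630.14, chromosome 14, 74941834 to 74955784, minus strand), placental growth factor and another ligand of FLT1, was low, at 36.4, 55.0 and 37.3 normalized counts in the rescue, 32.7, 43.8 and 58.5 in the knockout and 42.4, 45.9 and 53.3 in wild type. The groups overlapped throughout, and adjusted p was 0.908 for the rescue against the knockout, 0.863 for the rescue against wild type and 0.892 for the knockout against wild type. On the compressed deposited scale the 95% intervals reached at most 0.13 from 0, but within-batch ratios of the rescue to the knockout still ran from 0.637 to 1.25, so a moderate change could not be seen at this level.

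ANGPT2 (ENSG00000091879.14, chromosome 8, 6499651 to 6563409, minus strand), a ligand of TEK, had 15.6, 15.5 and 10.8 normalized counts in the rescue, 7.06, 9.65 and 10.5 in the knockout and 7.83, 15.4 and 12.6 in wild type. These values are a few times the worth of 3 reads, and all lay under 1 CPM, a library's share of normalized counts scaled to a common total. The gene lies inside MCPH1 on the opposite strand, and reads of the 2 genes may not be separated. The groups of the rescue and the knockout did not overlap, by a margin of 10.8 against 10.5.

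**Figure D3:**
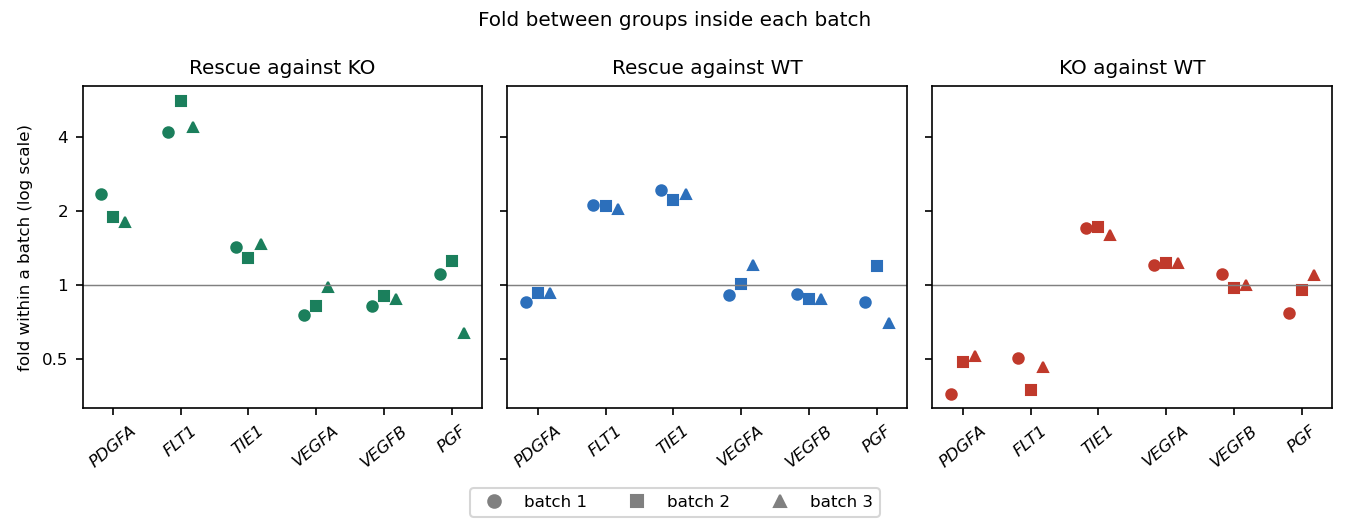
Fold between groups inside each batch for the 6 tested genes (vertical axis, log scale), 1 panel per comparison and 1 marker per batch. FLT1 was between 4.19 and 5.62 in the rescue against the knockout, VEGFA between 1.21 and 1.23 in the knockout against wild type, and PGF lay on both sides of 1 in every panel.

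Per kilobase of the longest coding transcript, PDGFA was the most abundant of the 7 genes in every group, with a mean of 1313 normalized counts per kilobase in the rescue (1205 to 1383), 657 in the knockout (589 to 746) and 1459 in wild type (1302 to 1625). In the rescue the next was TIE1 (431 per kilobase), followed by VEGFB (384), VEGFA (284), FLT1 (66.5), PGF (22.2) and ANGPT2 (2.58), with no overlap between neighbours. In the knockout the order was VEGFB (444), VEGFA (334), TIE1 (310), PGF (23.4), FLT1 (14.1) and ANGPT2 (1.67), where VEGFA and TIE1 overlapped. In wild type it was VEGFB (432), VEGFA (273), TIE1 (185), FLT1 (32.0), PGF (24.5) and ANGPT2 (2.21), where FLT1 and PGF overlapped. TIE1 thus moved past VEGFA and VEGFB in the rescue, and FLT1 lay below PGF in the knockout alone. The transcript in use was not measured, so these levels depend on the length taken.

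The sequence before the start of each called gene is shown because these 3 genes carry the calls. The sequences are from RefSeq on GRCh38.p14, on the gene's strand, 5′ to 3′, and stop short of exons annotated in GENCODE release 29. Capitals mark GGGCGG or its reverse complement CCGCCC, the letters of the GC box bound by the Sp1 family.
PDGFA, chr7:519847-519959, minus strand, 113 bases to 1 base before 1 of its 4 listed starts: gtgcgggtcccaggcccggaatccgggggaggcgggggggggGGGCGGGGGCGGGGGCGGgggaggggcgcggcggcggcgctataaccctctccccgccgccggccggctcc
FLT1, chr13:28495146-28495378, minus strand, 250 to 18 bases before the start: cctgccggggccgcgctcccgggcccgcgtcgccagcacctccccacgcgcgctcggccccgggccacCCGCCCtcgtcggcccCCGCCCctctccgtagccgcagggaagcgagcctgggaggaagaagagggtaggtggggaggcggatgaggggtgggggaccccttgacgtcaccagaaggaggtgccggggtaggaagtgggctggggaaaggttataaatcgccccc
TIE1, chr1:43300732-43300981, plus strand, 250 bases to 1 base before the start: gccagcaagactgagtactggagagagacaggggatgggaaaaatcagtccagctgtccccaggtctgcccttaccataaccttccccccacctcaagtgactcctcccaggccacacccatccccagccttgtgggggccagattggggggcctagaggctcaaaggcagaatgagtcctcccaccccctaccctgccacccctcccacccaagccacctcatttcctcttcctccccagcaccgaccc
The PDGFA stretch is 85.8% G or C and holds 3 GC boxes in its G-rich run, a known control element of the gene. Its start was picked by hand among the 4 listed, and the stretch lies inside the gene span given above. The window around that start is 81.7% G or C with 4 GC boxes. The other windows of PDGFA are 71.7%, 70.3% and 72.7% G or C, with 4, 1 and 5 GC boxes. The FLT1 stretch is 73.4% G or C with 2 GC boxes, and the TIE1 stretch is 61.6% with none. Among 35116 promoter windows of all genes, each from 250 bases before a start to 50 after it, 45.0% held GGGCGG on either strand. The printed stretches are shorter than these windows. Of the 9 full windows listed for PDGFA, VEGFB, PGF, TIE1 and FLT1, 8 held it, and 4 of the 9 belong to PDGFA.
SOX proteins bind ACAAAG and ACAATG, which 16.1% and 10.8% of the 35116 windows hold on either strand. None of the 9 windows listed for PDGFA, VEGFB, PGF, TIE1 and FLT1 holds either one, which says only that these letters are not in these windows.

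The genes whose levels followed each called gene most closely were listed by Pearson correlation over the 9 libraries on the deposited log2 scale, as a description, since the groups are shared by all of them. For PDGFA they included SEPTIN3 (r = 0.988), INSM1 (0.988), HDGFL3 (0.986) and MGAT5B (0.983). INSM1, a transcription factor of neuroendocrine cells, averaged 1964 normalized counts in the rescue, 668 in the knockout and 2168 in wild type. For FLT1 they were GSTA4 (r = 0.993), HDAC7 (0.988), PHLDA1 (0.986), PDCD4 (0.986) and DAB2IP (0.985). DAB2IP, a GTPase-activating protein of Ras, averaged 527 normalized counts in the rescue, 17.6 in the knockout and 154 in wild type. For TIE1 they were EML5 (r = 0.989), ABLIM1 (0.973), TRO (0.966), GMFG (0.960) and CASP4 (0.960). CASP4, an inflammatory caspase, averaged 105 normalized counts in the rescue, 74.3 in the knockout and 16.5 in wild type.

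Transcripts of the PDGF receptors were scarce in these cells. PDGFRA, the receptor of PDGFA, had between 0 and 3.30 normalized counts in the rescue, between 0 and 4.51 in the knockout and between 0.857 and 7.36 in wild type, at or near the worth of 3 reads. PDGFRB had 12.0 to 43.5 in the rescue, 0.579 to 9.45 in the knockout and 9.28 to 20.9 in wild type, and FLT4, a receptor of lymphatic VEGF ligands, had at most 14.0 in the rescue, 8.42 in the knockout and 9.91 in wild type. These 3 were named for their ligands after their values were seen and were too low to be tested, and KDR and TEK were not analysed here. Of 9 receptor genes present besides FLT1 and TIE1, these included, 4 were tested. FGFR1, a receptor of fibroblast growth factors, rose 4.81-fold in the rescue against the knockout (377 ± 17.3 and 78.4 ± 23.3 normalized counts, adjusted p = 2.21e-05) and was 2.10-fold above wild type (179 ± 45.7, adjusted p = 0.00529). In the knockout FGFR1 fell to 0.437 of wild type (adjusted p = 0.00899). Without batch 1 or batch 3 its calls against wild type were partly lost (rescue adjusted p = 0.11 without batch 1, knockout adjusted p = 0.103 without batch 1 and 0.138 without batch 3). EPHB4, the ephrin receptor of veins, averaged 47.8 in the rescue, 101 in the knockout and 48.4 in wild type, and was called lower in the rescue against the knockout and higher in the knockout against wild type (adjusted p = 0.0189 and 0.029). Each of these calls was lost when any of 4 single libraries was left out: knockout 1 (adjusted p = 0.0582 against the rescue and 0.0875 against wild type), knockout 3 (0.0704 and 0.102), rescue 2 (0.0757) or 3 (0.0584) for the first, and wild type 1 (0.101) or 2 (0.0654) for the second. The median log2 difference of the 4 tested receptors was 0.16 in the rescue against the knockout, 0.11 in the rescue against wild type and -0.05 in the knockout against wild type, where all tested genes had medians of -0.01, 0 and 0.01.

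Of 8 other ligands present, 2 were tested. HBEGF, a heparin-binding ligand of the EGF receptor, rose 1.96-fold in the rescue against the knockout (12330 ± 2847 and 6295 ± 366 normalized counts, log2 difference 0.87, adjusted p = 0.00955). It was called in the rescue against wild type with the replicate block (adjusted p = 0.004) but not without it (0.105), and the knockout did not pass the threshold against wild type (7636 ± 2490, adjusted p = 0.565). The call of the rescue against the knockout was lost without batch 3 (adjusted p = 0.132). Among 6 tested genes that process or trap the ligands, ST14, a membrane serine protease, fell to 2154 ± 159 normalized counts in the knockout, against 3836 ± 632 in wild type (adjusted p = 6.38e-04), and was also lower in the rescue, at 2717 ± 253 (adjusted p = 0.0341 against wild type). The second call was lost without any 1 of rescue 1, 2 and 3, knockout 1, and wild type 1 and 3 (adjusted p = 0.0547, 0.13, 0.0881, 0.053, 0.0759 and 0.0602). The rescue was above the knockout for ST14 with the block alone (adjusted p = 0.0167, and 0.0657 without it). PCSK7, a proprotein convertase, fell in the rescue against the knockout, at 911 ± 76.7 and 1168 ± 70.7 (adjusted p = 0.0162), a call lost without rescue 1 or 3 or knockout 3 (adjusted p = 0.0611, 0.064 and 0.0676), and was higher in the knockout than in wild type with the block alone (0.0338, and 0.0621 without it).

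Of 30 tested genes that carry signals from PDGF and VEGF receptors, 5 rose and 8 fell in the rescue against the knockout, 1 rose in the rescue against wild type, and 2 rose and 3 fell in the knockout against wild type. Of all tested genes, 22.1% were called in the rescue against the knockout, 4.07% in the rescue against wild type and 12.7% in the knockout against wild type. With the replicate block those shares were 31.2%, 8.06% and 21.5%, and among the 30 genes 6 rose and 9 fell in the rescue against the knockout, 1 rose and 3 fell in the rescue against wild type, and 6 rose and 5 fell in the knockout against wild type. Their median log2 differences were -0.04, 0.02 and 0.01, close to those of all tested genes. NCK2, an adaptor that couples receptors to actin, was the member with the smallest adjusted p. It averaged 646 ± 66.6 normalized counts in the rescue, 166 ± 31.1 in the knockout and 451 ± 28.4 in wild type (adjusted p = 4.93e-06 for the rescue against the knockout, 0.0392 for the rescue against wild type and 1.18e-04 for the knockout against wild type). The call of the rescue against wild type was lost without any 1 library other than knockout 1 (adjusted p = 0.0514 to 0.168). The kinase AKT1 rose 1.46-fold in the rescue against the knockout (adjusted p = 1.67e-04) and fell to 0.788 of wild type in the knockout (adjusted p = 0.00561, but 0.0643 without batch 1 and 0.0583 without batch 3). GRB2, the adaptor that links receptors to Ras, fell in the rescue against the knockout by 0.28 on the log2 scale (8623 ± 263 and 10665 ± 247 normalized counts). With the block GRB2 was also called lower in the rescue than in wild type (adjusted p = 0.0217, and 0.0663 without it) and higher in the knockout than in wild type (0.0482, and 0.113 without it). STAT3, a transcription factor below many cytokine and growth factor receptors, was 1.40-fold higher in the knockout than in wild type and fell in the rescue against the knockout (adjusted p = 0.00114 and 0.0124). These calls were lost without batch 3 (adjusted p = 0.0548 and 0.126), and the second also without batch 1 (0.187) or knockout 1 alone (0.0629).

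VEGFA is a target of the hypoxia factors, and 23 genes of that response were tested. In the rescue against the knockout 4 rose and 4 fell, where 11.5% of all tested genes rose and 10.7% fell, and in the rescue against wild type none rose and 1 fell (2.30% and 1.78% of all). In the knockout against wild type none rose and 5 fell, where 5.36% of all tested genes rose and 7.37% fell. With the replicate block the counts were 5 higher and 4 lower, then none higher and 4 lower, then 1 higher and 5 lower. Of all tested genes the fit with the block called 31.2%, 8.06% and 21.5%. The gene added upward in the last comparison was LDHA, a glycolytic enzyme (adjusted p = 0.0473, and 0.134 without the block). The median log2 differences were 0.06, 0.02 and -0.03. EGLN3, a hydroxylase that marks the hypoxia factors for degradation, averaged 546 ± 13.1 normalized counts in the rescue, 225 ± 23.8 in the knockout and 526 ± 41.0 in wild type (adjusted p = 2.78e-05 for the rescue against the knockout and 5.75e-05 for the knockout against wild type). ADM, the vessel-dilating peptide adrenomedullin, averaged 959 ± 72.4 in the rescue, 463 ± 66.8 in the knockout and 841 ± 55.2 in wild type, and was called in the same comparisons (adjusted p = 8.66e-05 and 6.38e-04). HIF1A itself rose 1.47-fold in the rescue against the knockout (adjusted p = 5.65e-04) and fell to 0.795 of wild type in the knockout (adjusted p = 0.0208). The second call was lost without knockout 2 (0.0754) or wild type 1 (0.0588) or 2 (0.0568). It was also lost without batch 1 (0.143), batch 2 (0.125) or batch 3 (0.0515). VLDLR, a lipoprotein receptor, was also called in those comparisons. None of EGLN3, ADM, HIF1A and VLDLR was called in the rescue against wild type (adjusted p from 0.173 for HIF1A to 0.965 for VLDLR). VEGFA had its highest level in the knockout within each batch.

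The list of vessel growth inhibitors had 8 tested genes, among them VASH2, a vasohibin that is reported to promote vessel growth and is therefore given apart, a choice made after its values were seen. Of the other 7, 1 rose and 2 fell in the rescue against the knockout, none was called in the rescue against wild type, and 2 rose and 2 fell in the knockout against wild type. With the replicate block these counts were 1 higher and 3 lower, 1 higher and 1 lower, and 2 higher and 3 lower. Of all tested genes, 22.1%, 4.07% and 12.7% were called in these comparisons, and 31.2%, 8.06% and 21.5% with the block. The median log2 differences of the 7 were -0.04, -0.11 and -0.11, and those of all tested genes -0.006, 0 and 0.005. TIMP2, an inhibitor of matrix proteases, averaged 5204 ± 499 normalized counts in the rescue, 2496 ± 249 in the knockout and 4199 ± 305 in wild type (adjusted p = 1.60e-05 for the rescue against the knockout and 3.14e-04 for the knockout against wild type). With the block TIMP2 was also called higher in the rescue than in wild type (adjusted p = 0.00472, and 0.0945 without it). VASH2 averaged 566 ± 30.9 in the rescue, 202 ± 21.3 in the knockout and 355 ± 52.8 in wild type and was called in all 3 comparisons (adjusted p = 2.39e-05 for the rescue against the knockout, 0.0102 for the rescue against wild type and 0.00477 for the knockout against wild type). The calls against wild type were lost without batch 1 (adjusted p = 0.0522 for the rescue and 0.101 for the knockout) and without batch 3 (0.189 and 0.0645), and that of the rescue also without batch 2 (0.0709). SERPINF1, the secreted factor PEDF, and SEMA4A, a semaphorin, moved the other way. SERPINF1 averaged 947 ± 49.7 in the rescue, 1236 ± 82.0 in the knockout and 857 ± 41.4 in wild type, with calls in the rescue against the knockout (adjusted p = 0.00814, but 0.0529 without batch 1 and 0.129 without batch 3) and in the knockout against wild type (0.00201). SEMA4A averaged 91.2 ± 21.8 in the rescue, 207 ± 14.5 in the knockout and 121 ± 4.77 in wild type, and was called in the same comparisons (adjusted p = 6.63e-04 and 0.0102, the second 0.0824 without batch 1 and 0.134 without batch 3).

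**Figure D4:**
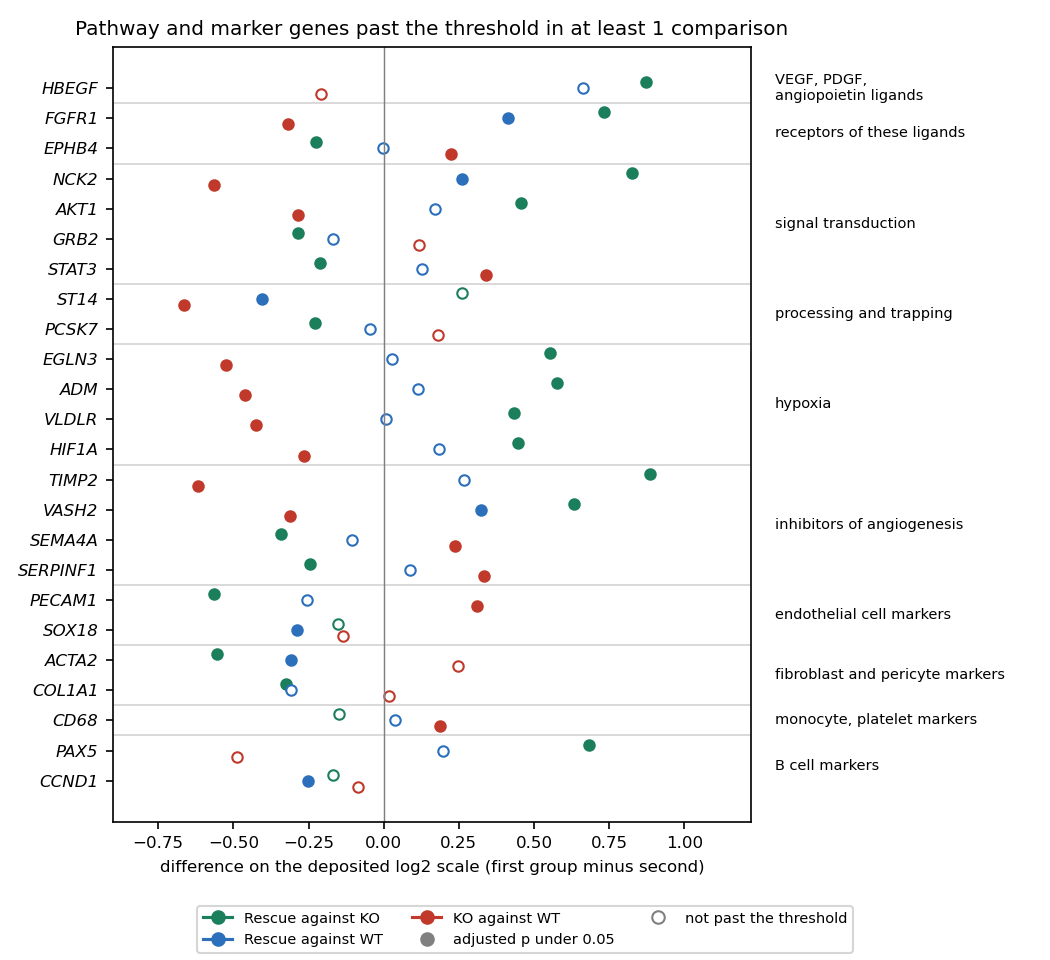
Difference on the deposited log2 scale (horizontal axis, first group minus second) for the pathway and marker genes named by rule, grouped by list; filled circles mark adjusted p under 0.05. Within the hypoxia list EGLN3, ADM, VLDLR and HIF1A lie to the right for the rescue against the knockout and to the left for the knockout against wild type, while SERPINF1, SEMA4A and PECAM1 lie the other way round.

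Because FLT1 and TIE1 are best known from blood vessels, endothelial markers were read beside them. Of 9 markers present, CLDN5, ESAM, EMCN, CD34, TAL1 and MMRN2 stayed under 1 CPM in every library, and CDH5, VWF, KDR and TEK were not analysed here. The summed level of the 9 was 43.8 to 53.8 CPM in the rescue, 56.1 to 73.0 in the knockout and 47.5 to 60.8 in wild type. Most of that sum was FLI1, a transcription factor that blood cells also express, with means of 41.8 CPM in the rescue, 46.3 in the knockout and 41.7 in wild type. PECAM1, which lymphocytes also express, fell to 155 ± 8.50 normalized counts in the rescue, against 436 ± 84.8 in the knockout (adjusted p = 2.03e-04). It was higher in the knockout than in wild type (262 ± 45.0, adjusted p = 0.0142). That call was lost without wild type 1 (0.0573), batch 1 (0.105) or batch 3 (0.131). With the replicate block PECAM1 was also called lower in the rescue than in wild type (adjusted p = 0.0374, and 0.0797 without it). SOX18 was called lower in the rescue than in wild type (113 ± 19.2 and 221 ± 64.9, adjusted p = 0.0466), a call lost without any 1 library other than wild type 2 (adjusted p = 0.0595 to 0.164).

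B cell markers had summed levels of 4740 to 4960 CPM in the rescue, 4610 to 4970 in the knockout and 4960 to 5400 in wild type, of which CCND1 is the cyclin driven by the translocation of mantle cell lymphoma. Most of that sum was CCND1, with means of 3096 CPM in the rescue, 3445 in the knockout and 3659 in wild type. The list includes SOX11 itself, the edited gene, which was called in every comparison. SOX11 added means of 377 CPM in the rescue, 29.3 in the knockout and 101 in wild type. The sums are therefore not levels of the other markers alone. Of the 7 other genes tested, 1 rose in the rescue against the knockout, 1 fell in the rescue against wild type, and none was called in the knockout against wild type. With the replicate block 2 rose and 1 fell in the rescue against the knockout, 3 rose and 2 fell in the rescue against wild type, and 1 rose and 2 fell in the knockout against wild type. The shares of all tested genes called in these comparisons were 22.1%, 4.07% and 12.7%, and with the block 31.2%, 8.06% and 21.5%. CCND1 was called lower in the rescue than in wild type (log2 difference -0.25, adjusted p = 0.0411), a call lost without any 1 library other than wild type 3 (adjusted p = 0.0557 to 0.158). With the block it was also called lower in the rescue than in the knockout (adjusted p = 0.0297, and 0.0688 without it). PAX5, the B cell transcription factor, was called higher in the rescue than in the knockout (12363 ± 2230 and 7474 ± 1867 normalized counts, adjusted p = 0.0231), a call lost without rescue 2 (0.0854) or knockout 1 (0.0803) or 3 (0.0899). With the block PAX5 was also called higher in the rescue than in wild type (adjusted p = 0.0485, and 0.67 without it) and lower in the knockout than in wild type (1.10e-04, and 0.12 without it). Of 9 fibroblast and pericyte markers present, 4 were tested. ACTA2, smooth muscle actin, fell in the rescue to 129 ± 17.9, against 380 ± 31.8 in the knockout (adjusted p = 3.60e-04) and 254 ± 79.5 in wild type (adjusted p = 0.0443). Its call against wild type was lost without any 1 library other than wild type 1 and 2 (adjusted p = 0.0616 to 0.16). With the block ACTA2 was also called higher in the knockout than in wild type (adjusted p = 0.0248, and 0.0544 without it). COL1A1, a collagen chain, fell in the rescue against the knockout (adjusted p = 0.0244), a call lost without rescue 1 (0.0829) or 2 (0.0768) or knockout 2 (0.0856) or 3 (0.0586). Their summed list was 28.6 to 35.0 CPM in the rescue, 43.1 to 51.4 in the knockout and 41.1 to 45.9 in wild type. Of 6 monocyte and platelet markers present, CD68 was the only one to reach 1 CPM in 3 libraries and was called higher in the knockout than in wild type (adjusted p = 0.0399), a call lost without rescue 3, knockout 1 or 2, or wild type 1 or 3 (adjusted p = 0.0596, 0.127, 0.125, 0.0911 and 0.108). The part of these markers in the results for the angiogenic genes was not tested.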

How the data were processed

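RNA-seq of the Z138 line gave 9 libraries in 3 groups of 3. Per the labels' protocols, polyadenylated RNA was made into libraries with either of 2 TruSeq kits, 1 of them stranded. Per the submitters' processing notes, Trimmomatic 0.40, kallisto 0.46.1, DESeq2 1.24.0 and build GRCh38.p13 were used. The deposited log2 values share a lowest value of 8.5985 in all libraries and are variance-stabilized, not log CPM. The transform was inverted in closed form to normalized counts, and CPM is each library's share of them. Among low values of genes with 1 transcript, 87.2% to 98.7% lay within 0.05 of a whole multiple of 1 read's worth. Over all genes 49.9% to 53.2% did (10% by chance), so no count test was run. Read depth was thus estimated from low genes, and the worth of 3 reads covers counting error alone.

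Genes with CPM of at least 1 in 3 libraries (11542) were fitted with limma 3.58.1 in R 4.3.3 on the deposited values, 1 mean per group, trended prior variance, and Benjamini-Hochberg adjustment. The fit was tested on simulated data without batch differences, so that test does not cover the pairing described next. Same-numbered libraries share a batch label, which pairs them: their deviations correlated at 0.187 to 0.51, and 9 of 9 correlated best with their own number. Members and lists were chosen with earlier results of these data known. Named genes are the members, up to 4 called genes per list with the smallest adjusted p, and the 5 closest genes of each called member, 1 of which is not reported here. Exceptions are said to be so. Alternatives were the replicate block, filters, scalings, prior variances, 2-group fits and leaving out libraries or batches. Figures were drawn with matplotlib 3.10.9.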

Additional observations from a re-analysis of the deposited data

How the results depend on the processing

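PDGFA kept its direction and call in the rescue against the knockout and in the knockout versus wild type in all 21 alternatives (adjusted p at most 0.00466 and 0.00375). The block, the filters and the prior variances leave a log2 difference as it was, so there only a call could change. TIE1 kept its 3 calls in all 21 (adjusted p at most 0.0446 for the rescue against the knockout, 0.00584 for the rescue against wild type and 0.0127 for the knockout against wild type). FLT1 kept its call in the rescue against the knockout. Its differences from wild type ranged from 0.38 to 0.50 for the rescue and from -0.40 to -0.31 for the knockout when 1 library was left out, and lost their calls without batch 3 (0.45 and -0.36, adjusted p = 0.13 and 0.101), so that 1 angiogenic gene stayed called in the rescue against wild type. With the replicate block, VEGFA was called in the knockout against wild type (0.19; adjusted p = 0.0417, range over the alternatives 0.0417 to 0.42), as were 2481 genes there, 930 in the rescue against wild type and 3601 in the rescue against the knockout, where 1470, 470 and 2556 were called without it. The block changed no other call of the angiogenic genes. Leaving out 1 library gave 1738 to 2970 calls in the rescue against the knockout, 230 to 427 in the rescue against wild type and 938 to 1395 in the knockout against wild type. Without batch 1 these counts were 1167, 146 and 575, and without batch 3 they were 993, 111 and 574. Without batch 2, 249 genes were called in the rescue against wild type. Some uncalled differences changed sign. VEGFA in the rescue against wild type ran from -0.028 to 0.090 without 1 library and was -0.038 without batch 3. VEGFB in the knockout against wild type was -0.0093 without batch 1. PGF ran from -0.045 to 0.025 without 1 library in the rescue against the knockout and was 0.040 without batch 3, and it was 0.0056 without batch 3 in the rescue against wild type. For the knockout against wild type PGF ran from -0.050 to 0.020 without 1 library, was 0.0069 without batch 1 and 0.018 with quantile normalization. The causes were not tested. Of 43 called results of pathway and marker genes, 23 lost the call in at least 1 alternative and none reversed. PGF was not tested under the stricter filter. PGF, ANGPT2 and the PDGF receptors had low counts, which limits what their values can show.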
